A study of Homo sapiens with 6 samples.

Results

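The carbonic anhydrases are enzymes that interconvert carbon dioxide and bicarbonate with release or uptake of a proton. The 7 genes CA2, CA5B, CA8, CA9, CA11, CA12 and CA13 are described here, chosen by gene name from the 15 human genes of the family with earlier results of these same libraries in view. They are 7 of 58735 entries in the deposited count table. No single level or fold threshold gives this list. It holds CA8, which had 0 reads in every library, and leaves out CA14, which had more reads in all than CA2, so the 8 remaining family genes are reported beside it.

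The cells were MDA-MB-231, an established human cell line of triple-negative breast cancer. They were kept for 72 h with 2 µM Azeliragon, a small-molecule inhibitor of the receptor RAGE, or with its vehicle DMSO. Polyadenylated RNA was sequenced in 3 libraries for each treatment, lettered a, b and c. The labels give no genetic change in either group, and a single line stands for the disease. The labels do not say whether libraries of a treatment came from separate cultures, so the p-values rest on the spread among the 6 libraries alone, and that spread may be technical. In bulk RNA, fewer cells that express a gene and less of its RNA per cell cannot be told apart.

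Members of the family differ in where they work. CA9 and CA12 sit in the plasma membrane with the active site outside the cell, where they take part in the acidification around tumour cells and in the control of pH inside them. CA9 is a well-known target of the hypoxia-inducible factor HIF-1 and a marker of hypoxic tumours, and CA12 is best known in breast cancer as an oestrogen-responsive gene of luminal tumours. CA2 and CA13 are cytosolic enzymes, CA5B is mitochondrial, and CA8 and CA11 are related proteins that have lost the catalytic activity.

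The 250 bases before the RefSeq transcription start of CA9 and of CA12 (GRCh38.p14) are shown because these genes carried the differences described below. The CA9 bases lie at chr9:35673678-35673927 on the plus strand and the CA12 bases at chr15:63381847-63382096 on the minus strand. Capitals mark matches on either strand to ACGTG, the core letters of the HIF binding site (CACGT when read on the other strand), and to TGANTCA, the AP-1 motif.
CA9: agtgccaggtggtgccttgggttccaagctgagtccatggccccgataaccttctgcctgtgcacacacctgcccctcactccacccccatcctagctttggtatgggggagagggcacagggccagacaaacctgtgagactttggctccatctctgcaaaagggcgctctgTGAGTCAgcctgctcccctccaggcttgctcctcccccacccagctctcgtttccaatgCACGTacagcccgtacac
CA12: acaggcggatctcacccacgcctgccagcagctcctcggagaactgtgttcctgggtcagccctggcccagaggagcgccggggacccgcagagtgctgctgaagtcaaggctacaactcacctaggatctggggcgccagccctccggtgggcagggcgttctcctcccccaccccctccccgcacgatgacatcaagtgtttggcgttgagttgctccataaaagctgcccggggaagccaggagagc

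The CA9 window held 1 match to the HIF core, 18 to 14 bases before the start, and 1 match to the AP-1 motif, 77 to 71 bases before it. The CA12 window held neither. Of 35116 RefSeq promoters read over the same 250 bases, 18.5% held the HIF core and 6.57% the AP-1 motif. GENCODE 29 places the first base of CA9 inside this window and the first base of CA12 farther upstream. A match of letters is a description of the sequence and shows no binding.

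Library totals were 41455979 to 43772671 counts with Azeliragon and 43091452 to 44313584 with DMSO. A single read was worth 0.0222 to 0.0241 CPM (counts scaled to library size with TMM factors). Along the leading principal component, which held 45.4% of the variance, the Azeliragon libraries scored 13.1 to 16.5, DMSO b and c -19.9 and -24.1, and DMSO a -0.93. Results that rest on DMSO a are therefore also given without it. In the fit without DMSO a 23.7% of all genes tested were called, against 6.27% with 6 libraries, and counts of genes that pass without it are to be read against that share. The line markers VIM, CD44, FN1, AXL and MSN were abundant, with summed levels of 5814 to 5829 CPM with Azeliragon and 5481 to 5549 CPM with DMSO, and of these AXL was called higher (1.20-fold; edgeR adjusted p = 0.0297). Of 9 luminal and oestrogen receptor genes, PGR, TFF1 and AGR2 had 0 reads in every library. The list still summed to 92.0 to 97.7 CPM with Azeliragon and 116 to 125 CPM with DMSO, mostly from XBP1 and GATA3. Of 6 erythroid markers 4 were at 0, and the list summed to 4 to 12 reads per library with Azeliragon and 2 to 7 with DMSO. The leukocyte gene PTPRC had 3 reads in all, and the 5 leukocyte markers summed to 0.892 to 1.21 CPM with Azeliragon and 1.24 to 1.69 CPM with DMSO. Most of these sums came from CD14, whose libraries did not overlap but which was not called (log2 fold change -0.58, edgeR adjusted p = 0.247). The 4 endothelial markers summed to 5.96 to 6.29 CPM with Azeliragon and 3.08 to 4.50 CPM with DMSO, mostly from KDR, which was called higher (1.63-fold; edgeR adjusted p = 0.0324). The AXL and KDR calls held without DMSO a and ended without any other library. The part of these marker levels in the carbonic anhydrase results was not tested.

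Azeliragon-treated cells had less CA9 and CA12 RNA than DMSO-treated cells. Of the 7 listed genes 6 had enough reads to be tested, 2 of them were called lower with Azeliragon and 4 did not pass. None was called higher by edgeR, DESeq2 or limma-voom, and 0 were higher at an unadjusted edgeR p under 0.05. A gene was called at an adjusted p under 0.05 in a fit over all 16081 genes tested (edgeR quasi-likelihood test, Benjamini-Hochberg adjustment). In that fit 6.27% of all genes were called, 3.53% lower and 2.75% higher. The median log2 fold change (Azeliragon over DMSO) was -0.39 over the 6 tested members and 0.00 over all genes. Because the list was drawn up with results of this comparison known, these values describe the members, and their adjusted p-values are no independent evidence.

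CA9, the hypoxia-inducible membrane enzyme, spans 35673856 to 35681159 of chromosome 9 (plus strand, coordinates of GENCODE 29 on GRCh38). It had 41, 35 and 44 reads in Azeliragon libraries a, b and c, and 161, 115 and 143 reads in DMSO libraries a, b and c. The treatments did not overlap, and the highest Azeliragon library had well under the reads of the lowest DMSO library. Its level was 0.939 ± 0.13 CPM with Azeliragon and 3.18 ± 0.47 CPM with DMSO (SD, n = 3 each). CA9 fell 3.39-fold (log2 fold change -1.76, SE 0.22, 95% interval -2.23 to -1.29; edgeR adjusted p = 0.000486). Its log2 fold change was the 34th from the lowest of the 16081. Of its 539 reads 22.3% came from Azeliragon libraries (18.8% to 26.0%, exact 95% binomial interval for counting error only).

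Part of CA9 overlaps exons of ARHGEF39, an exchange factor for small GTPases on the opposite strand, and the strand setting of the counting is not given in the sources used here. ARHGEF39 itself had 461, 628 and 477 reads with Azeliragon and 646, 626 and 650 with DMSO. The treatments overlapped for ARHGEF39 (log2 fold change -0.26, SE 0.11; edgeR adjusted p = 0.226). The share of CA9 reads that could come from the overlap was not tested.

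CA12 spans 63321378 to 63382161 of chromosome 15 (minus strand). It had 394, 325 and 399 reads in Azeliragon libraries a, b and c and 741, 693 and 798 reads in DMSO libraries a, b and c, with no overlap. Its level was 8.75 ± 1.1 CPM with Azeliragon and 17.0 ± 1.3 CPM with DMSO (SD, n = 3 each). CA12 fell 1.94-fold (log2 fold change -0.96, SE 0.11, 95% interval -1.21 to -0.71; edgeR adjusted p = 0.000393). No overlapping gene was found for it in the annotation.

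Both calls held in each of the 6 fits that left out 1 library. In these fits CA9 ranged over log2 fold changes of -1.87 to -1.66 (edgeR adjusted p up to 0.00666), and CA12 over -1.03 to -0.85 (edgeR adjusted p up to 0.00567). In DMSO a, which stood apart from the other DMSO libraries, CA9 was at 3.57 CPM and CA12 at 16.4 CPM, CA9 above and CA12 within the range of DMSO b and c. The ratio of CA12 to CA9, each per length and set side by side after the values were seen, was 2.13 ± 0.062 with Azeliragon and 1.23 ± 0.17 with DMSO (SD, n = 3 each). This ratio was 2.07 to 2.19 in the Azeliragon libraries and 1.05 to 1.38 in the DMSO libraries, and it carries no test.

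**Figure D1:**
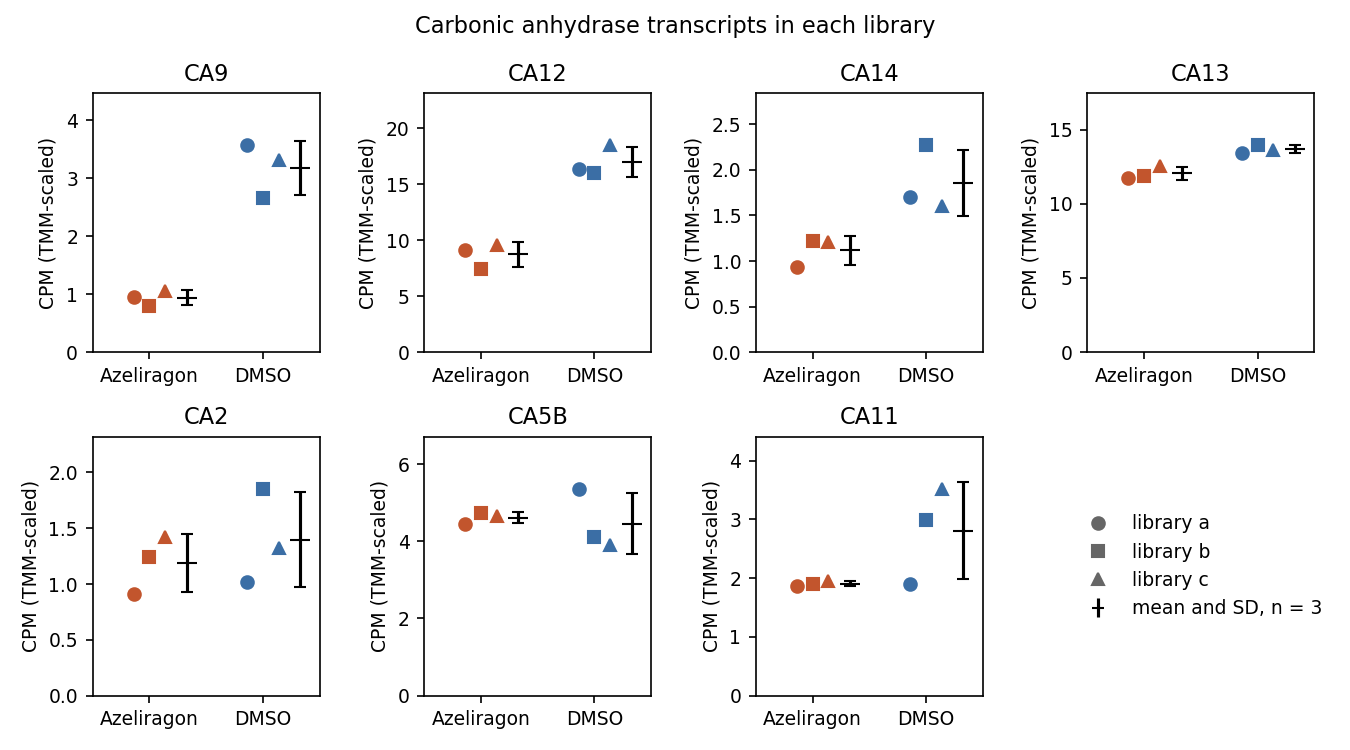
TMM-scaled CPM (vertical axes, starting at 0, a scale for each gene) of 6 listed genes and CA14 in every library. Points are libraries, and bars are the mean and SD of 3. CA9, CA12, CA13 and CA14 show separate Azeliragon and DMSO points, and of these CA9 and CA12 were called. For CA11 the DMSO a library lies among the Azeliragon libraries.

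CA14, a further membrane enzyme with an extracellular active site, is no member of the list. It spans 150257159 to 150265078 of chromosome 1 (plus strand), and its counts were 40, 53 and 50 with Azeliragon and 77, 98 and 69 with DMSO. Its level was 1.12 ± 0.16 CPM with Azeliragon and 1.86 ± 0.36 CPM with DMSO (SD, n = 3 each). The libraries did not overlap, but CA14 did not pass (log2 fold change -0.73, SE 0.25, 95% interval -1.27 to -0.19; edgeR adjusted p = 0.113). Without DMSO a the log2 fold change was -0.79 and it passed (edgeR adjusted p = 0.0454). An antisense gene that overlaps it had 0 reads.

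CA11, one of the related proteins without activity, spans 48637942 to 48646312 of chromosome 19 (minus strand). It had 80, 83 and 81 reads in Azeliragon libraries a, b and c and 86, 129 and 152 reads in DMSO libraries a, b and c. In CPM, DMSO a (1.90) lay inside the range of the Azeliragon libraries (1.86 to 1.95), while DMSO b and c were higher (2.99 and 3.52). CA11 did not pass with 6 libraries (log2 fold change -0.56, SE 0.23, 95% interval -1.06 to -0.05; edgeR adjusted p = 0.197). Without DMSO a the log2 fold change was -0.77 and the gene was called lower (edgeR adjusted p = 0.00818). Without DMSO c it was -0.36 and the gene was not called (edgeR adjusted p = 0.494), so both its size and its call depend on the DMSO libraries used. SEC1P, a pseudogene that overlaps CA11 on the opposite strand, had 43 reads in all.

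**Figure D2:**
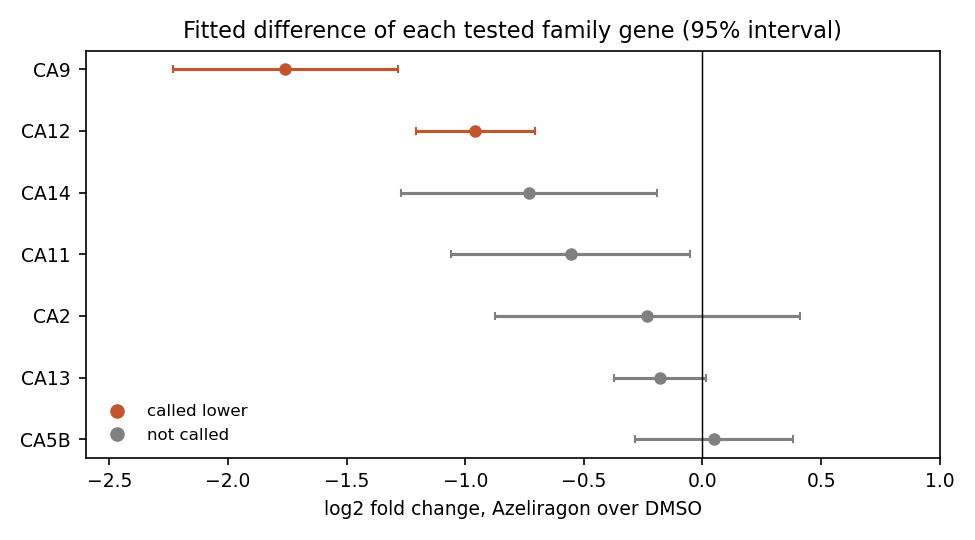
Log2 fold change, Azeliragon over DMSO, of the 7 family genes that could be tested, with 95% intervals from the edgeR fit. CA9 and CA12 (coloured) were called lower, and CA2, CA13 and CA5B have intervals that hold 0.

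The cytosolic and mitochondrial enzymes did not pass. CA13 (chromosome 8, 85220587 to 85284073, plus strand) had the highest mean level per length in the family, with 505, 519 and 521 reads with Azeliragon and 606, 602 and 589 with DMSO. Its libraries did not overlap, with levels of 12.1 ± 0.43 CPM with Azeliragon and 13.7 ± 0.26 CPM with DMSO (SD, n = 3 each). Its log2 fold change of -0.18 had a 95% interval of -0.37 to 0.01 (edgeR adjusted p = 0.285). An antisense gene that overlaps CA13 had 17 reads in all. CA2, the classical fast cytosolic enzyme (chromosome 8, 85463852 to 85481493, plus strand), had 39, 54 and 59 reads with Azeliragon and 46, 80 and 57 with DMSO, and the treatments overlapped. Its interval was wide (log2 fold change -0.23 with a 95% interval of -0.87 to 0.41; edgeR adjusted p = 0.712), and it holds the log2 fold change of CA11. The log2 fold change of CA2 was -0.42 without DMSO a and 0.02 without DMSO b. Of the 6 members tested 3 (CA9, CA12 and CA13) had libraries that did not overlap between treatments, and 25.3% of all genes tested did so.

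CA5B supplies bicarbonate inside mitochondria and spans 15688830 to 15788409 of the X chromosome (plus strand). It had 191, 206 and 193 reads with Azeliragon and 242, 177 and 168 with DMSO, so the Azeliragon libraries fell within the DMSO range. Its level was 4.61 ± 0.15 CPM with Azeliragon and 4.45 ± 0.79 CPM with DMSO (SD, n = 3 each). The log2 fold change was 0.05, inside a 95% interval of -0.29 to 0.38 (edgeR adjusted p = 0.901). It was 0.20 without DMSO a, the highest DMSO library for this gene, and -0.04 without DMSO c. CA5BP1, its pseudogene copy on the same strand with overlapping exons, had 431 reads with Azeliragon and 457 with DMSO. The treatment of reads that match both is not given in the sources used here, and the CA5B count is uncertain for that reason.

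The other family genes were at or near absence. CA8, a binding partner of the inositol trisphosphate receptor, had 0 reads in all 6 libraries, which allows up to 0.0665 to 0.0723 CPM per library (3 reads, counting error only). CA5A also had 0 reads. CA3 had 28 reads with Azeliragon and 26 with DMSO, and CA6 had 1, 1 and 5 with Azeliragon and 0 in each DMSO library. CA1, CA4, CA7 and CA10 had 3, 3, 5 and 1 reads over all libraries. CA1, CA2, CA3 and CA13 form a cluster on chromosome 8.

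Levels of different genes were compared per length, as RPKM (TMM-scaled CPM divided by kilobases of exon). With Azeliragon the order was CA13 at 2.18 ± 0.078 RPKM, CA12 at 1.20 ± 0.16, CA11 at 0.918 ± 0.022, CA9 at 0.562 ± 0.078, CA2 at 0.560 ± 0.12 and CA5B at 0.541 ± 0.017 (SD, n = 3). There the libraries of CA9, CA2 and CA5B overlapped, and the other neighbours in that order did not overlap. With lengths of the longest transcript in place of all exons, CA9 at 0.580 RPKM came below CA2 at 0.693 and CA5B at 0.674 in Azeliragon cells. With DMSO it was CA13 at 2.47 ± 0.047 RPKM, CA12 at 2.32 ± 0.18, CA9 at 1.91 ± 0.28, CA11 at 1.35 ± 0.40, CA2 at 0.658 ± 0.20 and CA5B at 0.522 ± 0.093 (SD, n = 3). Here the libraries of CA13 and CA12 overlapped, as did those of CA9 and CA11 and those of CA2 and CA5B. CA12 and CA9 did not overlap in DMSO cells, at 2.20 to 2.53 RPKM for CA12 and 1.60 to 2.14 RPKM for CA9, and CA11 and CA2 did not overlap either.

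**Figure D3:**
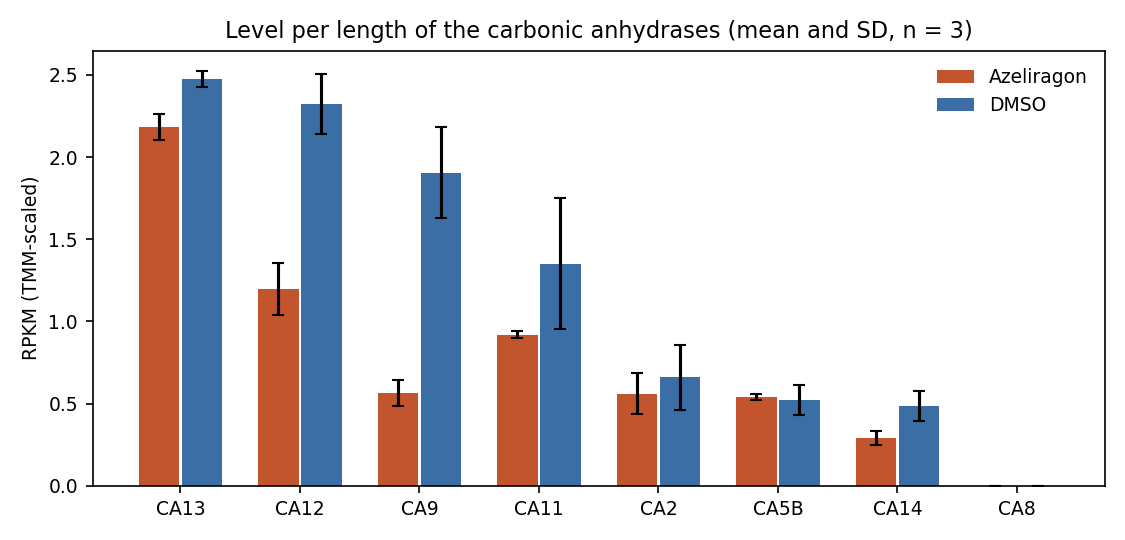
Level per length (RPKM, TMM-scaled, axis from 0) of the 7 listed genes and CA14, ordered by their DMSO level. Bars are means and error bars the SD of 3 libraries. CA9 is at 0.562 RPKM with Azeliragon and 1.91 RPKM with DMSO, and CA8 is at 0 in both.

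Summed by location, a grouping made after the values were seen, the RNA for the membrane enzymes CA9, CA12 and CA14 came to 2.05 ± 0.22 RPKM with Azeliragon and 4.71 ± 0.29 RPKM with DMSO (SD, n = 3 each). The cytosolic enzymes CA2, CA3 and CA13 came to 2.84 ± 0.16 RPKM with Azeliragon and 3.22 ± 0.19 RPKM with DMSO. All 15 family genes came to 6.38 ± 0.37 RPKM with Azeliragon and 9.83 ± 0.42 RPKM with DMSO. CA9 made up 8.79 ± 0.82% of the family's RNA with Azeliragon and 19.4 ± 3.2% with DMSO, while CA13 made up 34.2 ± 0.89% with Azeliragon and 25.2 ± 0.99% with DMSO. These sums follow from the members described above and carry no test of their own.

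Transporters that move the bicarbonate and protons handled by these enzymes mostly did not pass. Of 15 genes from the bicarbonate transporter families 10 were tested and 1 was called higher (median log2 fold change -0.02). Over all genes tested 6.27% were called, 3.53% lower and 2.75% higher. The small counts of these transport lists are to be read against those shares. SLC4A3, an anion exchanger, rose 1.44-fold to 12.0 ± 0.72 CPM with Azeliragon, against 8.34 ± 0.97 CPM with DMSO (SD, n = 3 each; edgeR adjusted p = 0.0155). The abundant genes SLC4A2, SLC26A6 and SLC4A11 of this list were not called, at log2 fold changes of 0.10, 0.00 and -0.04. The SLC4A3 call ended without DMSO b or any Azeliragon library, and 3 transporters passed without DMSO a.

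Of 18 genes for proton and lactate export 11 were tested and 1 was called lower (median log2 fold change -0.07), beside 3.53% of all genes. SLC16A3, the lactate exporter MCT4, fell 1.18-fold to 529 ± 2.5 CPM with Azeliragon, against 624 ± 42 CPM with DMSO (SD, n = 3 each; edgeR adjusted p = 0.0465). BSG, its chaperone basigin, and the sodium-proton exchanger SLC9A8 were not called, at log2 fold changes of -0.17 and 0.16. The SLC16A3 call was lost with the replicate letter as a block and without any single library except DMSO a, without which 6 genes passed. Of 23 genes for the proton-pumping V-ATPase 21 were tested and 2 were called higher (median 0.04), beside 2.75% of all genes. These were the membrane subunit genes ATP6V0A1 and ATP6V0A4, which rose 1.29-fold and 1.79-fold (edgeR adjusted p = 0.0112 and 0.0114). The abundant ATP6V0B, ATP6AP1 and ATP6V0E1 had log2 fold changes of 0.01, -0.03 and 0.05 and did not pass. Without DMSO a 4 V-ATPase genes passed, without Azeliragon a or Azeliragon c 1, and without DMSO b or Azeliragon b 0. With any Azeliragon library or DMSO b left out, 2.68% to 3.01% of all genes tested were called.

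None of 9 enzymes that use bicarbonate as a substrate was called by edgeR, 2 had an unadjusted edgeR p under 0.05, DESeq2 called 1 and limma-voom 0, and their median log2 fold change was 0.08. CAD, which starts pyrimidine synthesis, and the abundant ACACA and PC had log2 fold changes of 0.28, 0.20 and 0.02. Without DMSO a 2 of these enzymes passed. Among the inositol trisphosphate receptors, whose family member ITPR1 binds CA8, ITPR3 rose 1.67-fold (edgeR adjusted p = 0.0137), with 458, 449 and 493 CPM in Azeliragon a, b and c and 378, 237 and 224 CPM in DMSO a, b and c. ITPR1 and ITPR2 had log2 fold changes of 0.29 and 0.36 and did not pass. The ITPR3 call was lost without Azeliragon a, Azeliragon c or DMSO b, and 2 of the 3 receptors passed without DMSO a. The receptor phosphatases PTPRG and PTPRZ1, which carry a domain related to carbonic anhydrase, were not called by edgeR, DESeq2 or limma-voom (0 at an unadjusted edgeR p under 0.05), at log2 fold changes of 0.20 and 0.94. Without DMSO a 1 of them passed.

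CA9 was set beside other genes induced by HIF. Of 26 such genes, all tested, 6 were called lower by edgeR, 7 by DESeq2 and 6 by limma-voom, and their median log2 fold change was -0.14. None was called higher by these tools. At an unadjusted edgeR p under 0.05, 11 were lower and 2 were higher. No share of all genes at that unadjusted threshold is given here. Over all genes tested, edgeR called 3.53% lower and 2.75% higher. DESeq2 and limma-voom called 8.83% and 6.39% of all genes in either direction. ANGPTL4, a secreted regulator of lipoprotein lipase, fell 2.98-fold to 3.23 ± 0.29 CPM with Azeliragon, against 9.64 ± 1.9 CPM with DMSO (SD, n = 3 each; edgeR adjusted p = 0.000115). The transcriptional repressor BHLHE40 fell 1.51-fold, the mTORC1 inhibitor DDIT4 1.47-fold, the lactate dehydrogenase LDHA 1.28-fold and the collagen prolyl hydroxylases P4HA2 and P4HA1 1.27-fold and 1.24-fold. The abundant glycolysis genes ENO1, SLC2A1 and PGK1 had log2 fold changes of -0.09, -0.19 and -0.12 and did not pass, while ADM and LOX were at 0.27 and 0.20. CA9 had the lowest log2 fold change beside these genes, with ANGPTL4 inside its 95% interval. The count of 6 became 13 of 26 without DMSO a, where LOX was among the genes called higher and 23.7% of all genes tested were called. It was 4 with either Azeliragon a or b left out, where 2.68% and 3.01% of all genes tested were called. With either Azeliragon c or DMSO b left out it was 3, where 2.70% and 2.86% of all genes were called, against 6.27% with 6 libraries. ANGPTL4, BHLHE40 and DDIT4 kept their calls in each of these fits, while those of LDHA, P4HA1 and P4HA2 ended in at least 1.

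**Figure D4:**
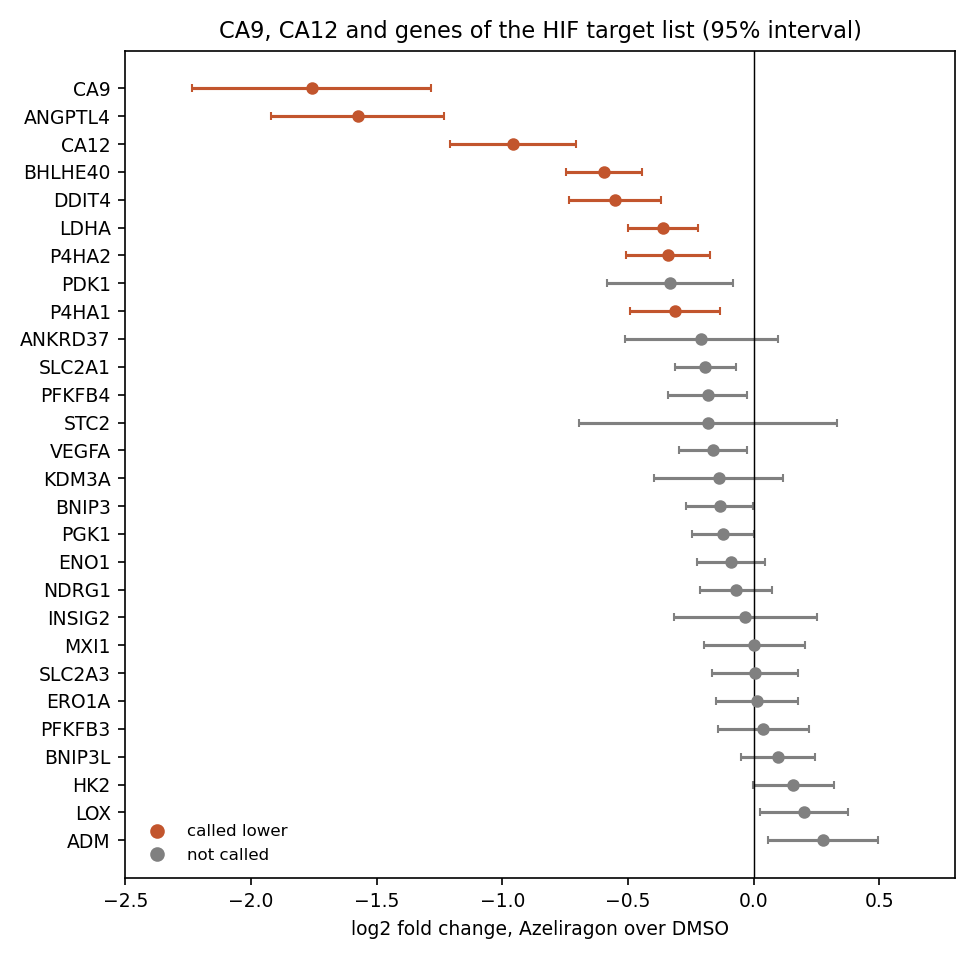
Log2 fold change, Azeliragon over DMSO, with 95% intervals for CA9, CA12 and the 26 genes of the HIF target list, from lowest to highest. Coloured points were called lower. CA9 (-1.76) and ANGPTL4 (-1.58) have the lowest values, and the other 25 list members lie between -0.60 and 0.27.

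Among 10 genes for HIF subunits and oxygen sensing 9 were tested and 1 was called lower, beside 3.53% of all genes. EGLN3, a prolyl hydroxylase that is itself a HIF target, fell 2.21-fold to 1.64 ± 0.32 CPM with Azeliragon, against 3.62 ± 0.86 CPM with DMSO (SD, n = 3 each; edgeR adjusted p = 0.00978). HIF1A, HIF1AN and VHL were not called, at log2 fold changes of -0.19, 0.08 and -0.06. The EGLN3 call was lost without DMSO b, Azeliragon b or Azeliragon c, and 3 of these genes passed without DMSO a. CA12 was set beside luminal and oestrogen receptor genes. Of 9 such genes 3 could be tested and 1 was called lower, beside 3.53% of all genes. XBP1, a factor of the secretory stress response, fell 1.28-fold (edgeR adjusted p = 0.00768), a call lost without Azeliragon a or Azeliragon c. GATA3 and FOXA1 were not called, at log2 fold changes of -0.25 and -0.10. ESR1, the oestrogen receptor alpha gene, had too few reads to be tested, with 10, 9 and 14 with Azeliragon and 0, 0 and 5 with DMSO. Its treatments did not overlap and Azeliragon was the higher, the opposite direction to CA12 and XBP1. Without DMSO c, 5 genes of this list were tested and 2 passed, XBP1 as lower and ESR1 as higher. DMSO c was the only DMSO library with ESR1 reads, so ESR1 was at 0 reads in both remaining DMSO libraries. Its pass there follows from leaving that library out and is no evidence of a rise.

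Over the 6 libraries, the genes whose log2 CPM followed CA9 most closely were ECE1, ZNF470 and NKAP, with Pearson r of 0.996, 0.995 and 0.995 among 10070 genes searched. For CA12 they were RCAN1, POLL and SLC25A20, with r of 0.996, 0.996 and 0.994 among 10069. These correlations describe 6 points that share 2 treatments. There were 201 genes with r over 0.95 to CA9 and 170 to CA12. Of the genes named, ECE1 was called lower (log2 fold change -0.48), and the others did not pass.

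**Figure D5:**
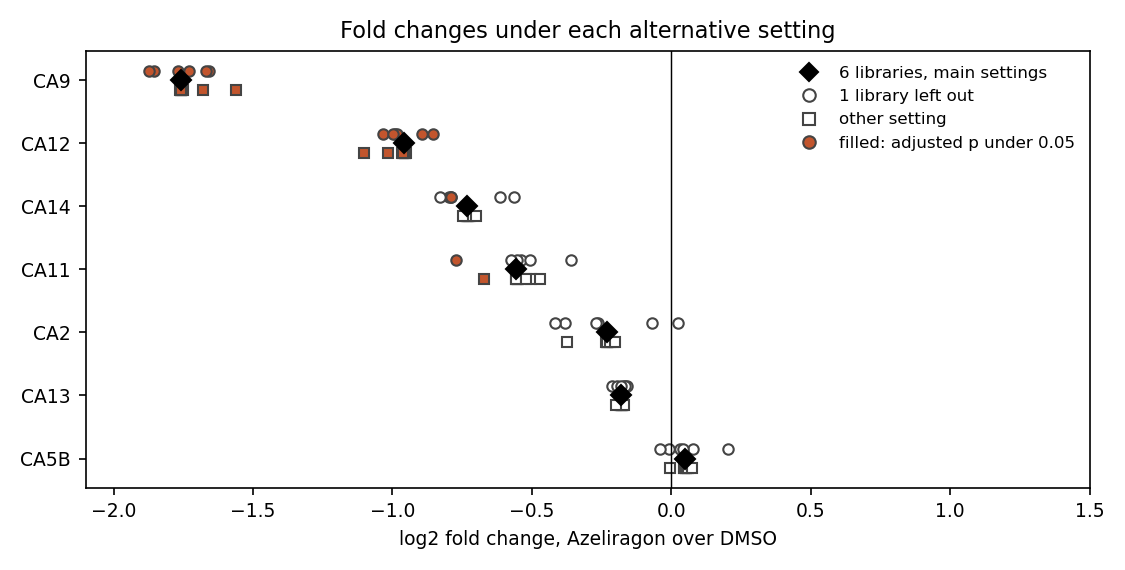
Log2 fold change, Azeliragon over DMSO, of the 7 tested family genes with the main settings (diamonds), with 1 library left out (circles) and under other settings (squares). Filled circles and squares passed the adjusted p threshold. CA9 and CA12 passed in all of them, CA11 and CA14 passed in some settings without DMSO a, and CA2 and CA5B cross 0.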

How the data were processed

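RNA was measured in 6 libraries, 3 of MDA-MB-231 cells with Azeliragon and 3 with DMSO, grouped by their labels. The authors deposited raw counts per gene. Per the submitters' processing notes, the tools were STAR 2.6.1d, featureCounts 1.5.0-p3 and limma and the build GRCh38. The notes list no roles, and no source used here states the annotation or the strand setting. Of 58735 entries, 58722 had a name in GENCODE 29, which gave coordinates and lengths. The 2 entries with a date as a name were left out. In edgeR 4.0.16 (R 4.3.3), genes passing filterByExpr were scaled by TMM and tested by quasi-likelihood (glmQLFit, glmQLFTest) on treatment alone. Benjamini-Hochberg adjustment ran over all 16081 genes at 0.05. The fit was tested on simulated data. RPKM was CPM per kilobase of the union of exons. Figures were drawn with matplotlib 3.10.9 in Python 3.11.15.

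Members, lists and tests were chosen with earlier results of these data known. Named were all family genes, from each list up to 6 called genes of largest change and up to 3 abundant genes not called, genes that overlap a member, and the 3 genes most like each called member (mean of at least 5 CPM, log2 of CPM plus 0.5, clone names left out). One gene that the rule names is not reported here. ADM and LOX fall outside this rule and were chosen after their values were seen. Every pair of libraries within a treatment differed by more than sampling noise (chi-square per degree of freedom at least 4.39). Alternatives were scaling by RLE or by totals, testing every gene with a read, requiring 1 CPM in 3 libraries with 50 counts on average, limma-voom (limma 3.58.1), DESeq2 1.42.0, a replicate block, removal of GC and length trends, and each library left out. A fit with both trends removed and DMSO a left out was chosen after seeing the data.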

Additional observations from a re-analysis of the deposited data

How the results depend on the processing

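The number of listed genes called was 2 under RLE size factors, library totals, no filter, the stricter filter, DESeq2, limma-voom, the replicate block and removal of GC and length trends, and 2 to 3 with each library left out (3 without DMSO a, where CA11 joined CA9 and CA12). With the trends removed and DMSO a left out it was also 3. CA9 and CA12 were called lower in all 15 alternatives, with log2 fold changes of -1.87 to -1.56 and -1.10 to -0.85. CA11 passed in 2 of 15 and CA14 in 1 of 15, all without DMSO a. Signs reversed for genes that were never called, namely CA2, which ranged from -0.416 to 0.0228 with each library left out (positive without DMSO b), and CA5B, which ranged from -0.0395 to 0.205 (negative without DMSO b or DMSO c) and was at -0.0036 with the trends removed. Over all genes, 1009 were called, against 1685 with no filter, 1706 with the trends removed, 3713 with the trends removed and DMSO a left out, and 445 to 3916 with 1 library left out, the highest being without DMSO a (23.7% of genes tested). The cause was not tested. With the replicate letter as a block (replicate block) 908 genes were called and CA9 was at -1.76. The letters are not said to pair libraries. The correlation of deviations between libraries of the same letter was 0.034, 0.035 and -0.098 for a, b and c, and 1 of 3 libraries in each treatment matched its own letter best. With the longest transcript in place of the exon union, CA13, CA12 and CA5B stood at 3.58, 2.65 and 0.651 RPKM in DMSO cells, and the order of the members was the same there. In Azeliragon cells CA9 (0.580 RPKM) came below CA2 (0.693 RPKM) and CA5B (0.674 RPKM). Low read counts limit the precision of CA2, CA14 and CA9.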
